A study of Homo sapiens with 5 samples.

Results

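Among the sites that ERG occupied in VCaP cells, 676 regions were broad in both ERG replicates and stood apart from other sites found in both. They were selected on the deposited peak lists as follows. Peaks of ERG replicates 1 and 2 that overlapped by at least 1 bp were merged into 16095 regions, of which 9366 held a peak of each replicate and are called shared. The autosomes other than 17 and 19 (20 chromosomes, here the kept autosomes) carried 8094 of the shared regions. A shared region was called broad when the widest peak of each replicate measured 550 bp or more, and lone when no other shared region lay within 10 kb. The 676 broad lone regions made up 8.35% of the shared regions on the kept autosomes and held 14.5% of their bases. Width, presence in both replicates and distance to the next shared region chose these regions, so those values are given as a description, with no test.

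The study mapped where ERG and p53 sit on the genome by ChIP-seq, in which chromatin is pulled down with an antibody and its DNA sequenced. The cells were VCaP, an established line from a human prostate cancer, kept in DMEM with fetal bovine serum. The labels name no experimental treatment, and the study's methods mention plasmocin, an agent against mycoplasma, used beforehand. An ERG antibody was used for 2 samples and DO-1, an antibody to p53, for 2 more, while the remaining sample was input chromatin, of which no peak list was used here. The ERG lists held 14337 and 11237 peaks (replicates 1 and 2), and the p53 lists held 227 and 138.

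ERG is a transcription factor of the ETS family, whose DNA-binding domain recognises a short GGAA core. In VCaP cells the fusion of TMPRSS2, an androgen-regulated gene, with ERG places ERG under androgen control in an epithelial cell that otherwise makes little of it. The same cells carry p53 with a missense mutation in its DNA-binding domain, a form that accumulates and can still be found at chromatin. A peak is a stretch in which sequenced fragments pile up above background, and its width grows with the fragment length, with the strength of the pile-up and with the number of binding positions that lie too close to be separated.

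Each deposited list gave chromosome, start, end and peak name alone. Peak height, fold enrichment and summit were not used here, so breadth could not be set against signal. All positions are hg19, counted from 1. An hg19 annotation or genome was not used here, and the regions are therefore given by position, without gene names or sequence. No p53 peak number stated by the study equals the length of either deposited p53 list, and both lists are far shorter than those numbers, by a filter not given in the sources used here. The p53 shares below hold for these short lists alone, and the absence of a p53 peak from them does not show absence of p53. The lists carry no read counts, and the part of read depth or of copy number in peak number and width was not tested. Whether the replicates came from separate cultures is not stated in the labels.

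In the broad lone regions the widest peak of replicate 1 ran from 550 to 2019 bp with a median of 732.5 bp, and that of replicate 2 from 550 to 1570 bp with a median of 666 bp. The narrower of the paired peaks had a median of 646 bp, and the merged region a median of 775 bp. Over all 8094 shared regions the median widths were 402 bp and 326 bp. The 142 broad regions that did have a shared neighbour within 10 kb had medians of 760 bp and 695.5 bp, close to those of the lone ones. Broad and narrower shared regions were lone about as often, 82.6% of the former and 84.8% of the latter.

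**Figure D1:**
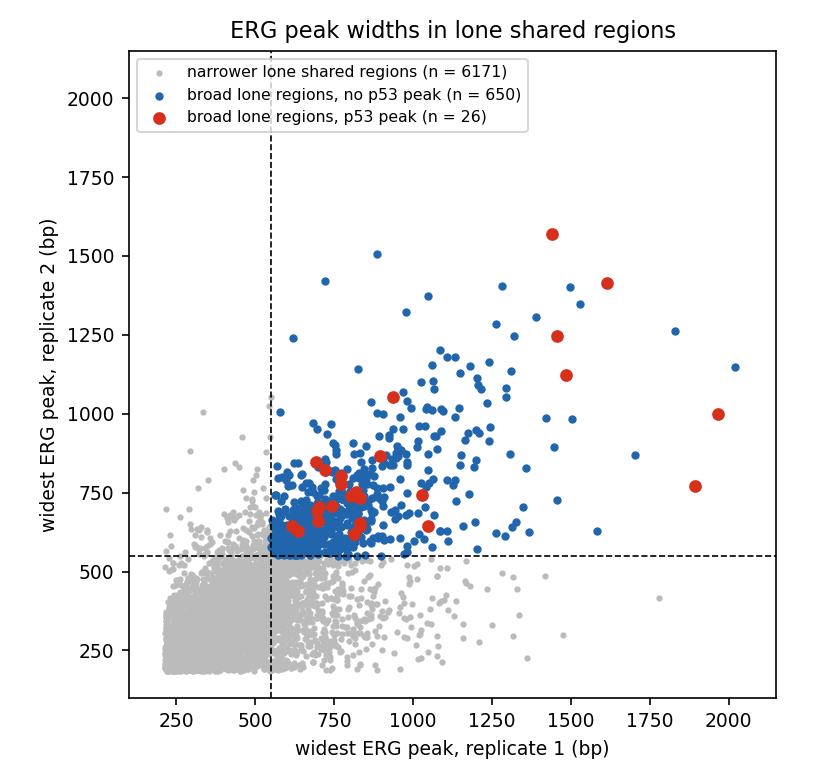
Width of the widest ERG peak in replicate 1 (x axis, bp) against replicate 2 (y axis, bp) for lone shared regions, with 6171 narrower regions in grey, broad regions without a p53 peak in blue and the 26 with one in red, and dashed lines at 550 bp. The broad regions fill the corner above both lines, with replicate 1 the wider in 485 and replicate 2 in 188.

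Replicate 1 gave the wider peak in 485 of the 676 regions (71.7%, 95% Wilson interval 68.2% to 75%), replicate 2 in 188, and the widths were equal in 3. Over all shared regions replicate 1 was the wider in 75%, so the excess ran through the ERG lists as a whole. The wider peak exceeded the narrower by a median ratio of 1.115, against 1.25 over all shared regions. The widths differed by 1.5 times or more in 43 regions (6.36%), compared with 24.2% over all shared regions. The rule itself favours such likeness, because it asks for 550 bp in both samples. Within the 676 regions, Pearson's r between the replicate widths was 0.61 and Spearman's rho 0.54. Over the 8094 shared regions these were 0.67 and 0.61, where the points of each set share the same pair of libraries.

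In 656 of the regions (97.0%, 95% Wilson interval 95.5% to 98.1%) each replicate had exactly 1 peak, a lower share than the 98.9% over all shared regions and the 99% of narrower lone ones. Of the rest, replicate 1 had several in 7 and replicate 2 in 14, with 1 region counted in both. Several replicate 1 peaks were thus seen in 1.04%, against 0.161% of all shared regions. The midpoints of the paired peaks lay a median of 39.75 bp apart, and within 100 bp in 549 regions (81.2%). Over all shared regions the median was 34.5 bp and the share within 100 bp was 86.4%. The offset in bp was therefore slightly larger in the broad lone regions. Relative to the mean peak width its median was 5.715% against 9.31%, a ratio whose denominator the rule had selected to be large. The bases covered in both replicates were a median of 85.3% of those covered in either, against 74% over all shared regions, a measure that the selected width also favours. The replicate 2 peak lay wholly inside the replicate 1 peak in 282 regions (41.7%), the reverse held in 57 (8.43%), and in 337 (49.9%) each replicate reached past the other on 1 side.

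A few regions differed strongly between the replicates. The widths differed most at chr20:277883-279465, with 1583 bp in replicate 1 and 630 bp in replicate 2, a ratio of 2.51. The next was chr13:111566468-111568360, with 1893 and 771 bp, a ratio of 2.46. At chr2:32581620-32582985 the widths were 1366 and 626 bp, a ratio of 2.18. In all 3 the replicate 1 peak was the wider. The paired peaks were farthest from each other at chr12:83079904-83081856. There replicate 1 had peaks of 1241 and 236 bp and replicate 2 had peaks of 441 and 915 bp. Their widest peaks overlapped by 10.4% of the bases covered by either and had midpoints 875 bp apart, so this region counts as broad in both samples over largely different bases.

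The width limit ran through a dense part of the distribution. Just inside it lay chr11:122687518-122688146 (550 bp in replicate 1, 606 bp in replicate 2), chr3:114866202-114866988 (761 and 550 bp) and chr6:91296507-91297293 (787 and 550 bp). Just outside lay chr12:48213003-48214062 (549 and 1054 bp), chr2:120124040-120124653 (614 and 549 bp) and chr4:35254691-35255317 (549 and 599 bp). Regions on either side of the limit differed by 1 bp in the narrower peak. Of the lone shared regions, 886 reached 550 bp in replicate 1 alone, 168 in replicate 2 alone and 5117 in neither.

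The 20 broadest regions, ranked by the narrower of the paired peaks, had narrower peaks of 1092 to 1441 bp and lay on 13 chromosomes. In every one of them each replicate had a single peak, and the midpoints were a median of 25.75 bp apart. The widths of the replicates were within 10% of each other in 12 of the 20, and replicate 1 was the wider in 15. The bases covered in both replicates were a median of 91.55% of those covered in either.

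**Figure D2:**
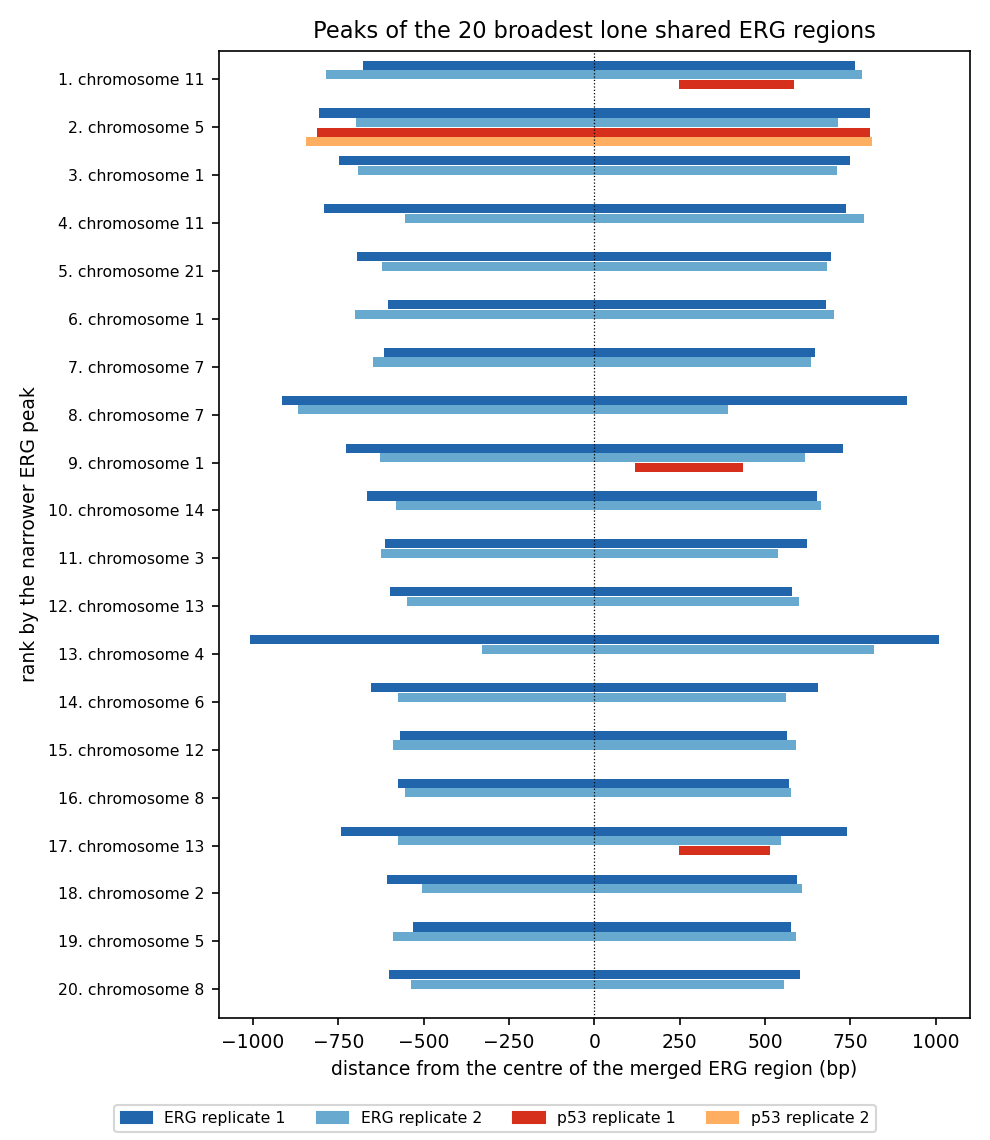
ERG and p53 peaks of the 20 broadest lone shared regions, drawn by distance from the centre of the merged region (x axis, bp) and ordered by rank of the narrower ERG peak (y axis), with a bar for each peak of each replicate. The ERG bars of the replicates nearly coincide in most regions and differ most at rank 13, with 2019 and 1149 bp, and p53 bars appear in 4 regions.

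The broadest region by this measure was chr11:64084444-64086013, with a peak of 1441 bp in replicate 1 and 1570 bp in replicate 2. Second was chr5:10161-11775, with 1615 and 1413 bp, which lies at the very start of chromosome 5. It was followed by chr1:16992412-16993909, with 1498 and 1403 bp. No other broad lone region had a narrower peak of more than 1347 bp. Rank 4 was chr11:63605386-63606967 (1529 and 1347 bp), on the same chromosome as rank 1. Rank 5 was chr21:40720441-40721829 (1389 and 1305 bp), and rank 6 was chr1:1677052-1678456 (1283 and 1405 bp). Rank 6, like rank 1, was wider in replicate 2.

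Chromosome 7 supplied the next pair. At rank 7, chr7:32930696-32931989 had nearly equal widths of 1264 and 1283 bp. At rank 8, chr7:39988850-39990679 had 1830 and 1261 bp, with midpoints 238.5 bp apart, and the replicate 1 peak reached past the replicate 2 peak on both sides. Rank 9 was chr1:16839725-16841181 (1457 and 1246 bp), in the same 1-Mb window as rank 3. Rank 10 was chr14:102552764-102554093 (1318 and 1245 bp), the most isolated of the 20, with 275053 bp to the next shared region. Rank 11 was chr3:9833909-9835157 (1239 and 1164 bp). Rank 12 was chr13:45914442-45915641 (1180 and 1150 bp), the least isolated of the 20, with 10280 bp to the next shared region. These 3 had widths that differed by less than 100 bp between the samples.

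The widest single ERG peak of all shared regions on the kept autosomes, 2019 bp in replicate 1, belonged to rank 13, chr4:83350480-83352498. Replicate 2 covered 1149 bp there, 56.9% of the bases covered by either, with midpoints 245 bp apart. Rank 14 was chr6:151711042-151712350 (1309 and 1135 bp). Ranks 15 and 16 had almost equal peaks in the samples, of 1133 and 1179 bp at chr12:49658332-49659510 and of 1147 and 1129 bp at chr8:126441371-126442521. Rank 17, chr13:99228379-99229861, was wider in replicate 1 (1483 against 1123 bp). The list closed with chr2:201676016-201677231 (1203 and 1113 bp), chr5:251866-253045 (1107 and 1180 bp) and chr8:103665822-103667025 (1204 and 1092 bp). The region after these, at rank 21, had a narrower peak of 1086 bp, 6 bp below rank 20, so the end of the list marks no gap in width. The choice of measure matters more: of these 20, 9 were also among the 20 broadest by the replicate 1 peak, 13 among those by replicate 2, and 7 in both.

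The next shared region lay a median of 57.75 kb from a broad lone region (quartiles 28.85 and 132.89 kb). It was over 50 kb away for 389 regions (57.5%), over 100 kb for 219 (32.4%) and over 500 kb for 25 (3.7%). Over all shared regions these shares were 54.2%, 34.5% and 4.84%, and for the 6171 narrower lone regions they were 64.8%, 41.7% and 5.95%, with a median gap of 77.965 kb. Broad lone regions were thus closer to the next shared region than narrower lone ones. The most isolated was chr14:81687284-81687934 (651 and 597 bp), with 2772 kb to the next shared region. Next came chr7:61968934-61969650 (694 and 692 bp), with 1805 kb, and chr3:114866202-114866988, with 1400 kb. None of these 3 was among the 20 broadest, and the part of mappability in their gaps was not tested. Nearest to the 10-kb limit on its inner side were chr9:137966942-137967675 (10219 bp), chr13:45914442-45915641 (10280 bp) and chr11:120206697-120207394 (10363 bp). On its outer side, and so not counted, were chr16:30076434-30077129 (9834 bp), chr3:48470626-48471627 (9677 bp) and chr11:67158797-67159568 (9319 bp).

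Lone here means without another region of both replicates, and regions seen in a single replicate could lie nearby. Such a region lay within 10 kb of 64 of the 676 (9.47%, 95% Wilson interval 7.48% to 11.9%). Over all 8094 shared regions the share was 11% (890), within that interval. It was 16.9% for the 142 broad regions with a shared neighbour and 10.2% for the 6171 narrower lone regions. None of the 20 broadest had one. The regions near the 64 numbered 71, with 51 from replicate 1 and 20 from replicate 2, and were narrow, at a median of 260 bp, like the 5931 single-replicate regions of the kept autosomes at 268 bp. A single such neighbour was present in 58 cases, a pair in 5 and more in 1.

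The regions were spread over all 20 kept autosomes, unevenly. Density was counted over the span between the outermost ERG or p53 peaks of a chromosome, not over its full length. The pooled density was 0.255 per Mb, and 9 chromosomes exceeded it. They were led by chromosome 21 (24 regions, 0.633 per Mb), chromosome 22 (18, 0.534), chromosome 11 (69, 0.513) and chromosome 20 (32, 0.511). The spans of chromosomes 21 and 22 were 37.92 and 33.7 Mb, and over full lengths, which were not used, this order could differ. Chromosome 16 had 5 regions (0.0555 per Mb) and chromosome 10 had 15 (0.111). Chromosome 1 had the most, 78. These densities follow in part the number of shared ERG regions on each chromosome. As a share of these, the broad lone regions made up 8.35% in all, and 12.7% on chromosome 21 (24 of 189, 95% Wilson interval 8.68% to 18.2%), 11.6% on chromosome 11 (69 of 597, 9.24% to 14.4%) and 11.6% on chromosome 12 (64 of 552, 9.18% to 14.5%), 3 chromosomes whose interval lay above the pooled share. The interval lay below it on chromosomes 6 (22 of 410, 5.37%, 3.57% to 7.99%), 10 (15 of 354, 4.24%, 2.58% to 6.87%) and 16 (5 of 241, 2.07%, 0.889% to 4.76%). The remaining 14 chromosomes had intervals that held the pooled share. The intervals cover counting error only, and the part of copy number, gene density and mappability in these shares was not tested.

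**Figure D3:**
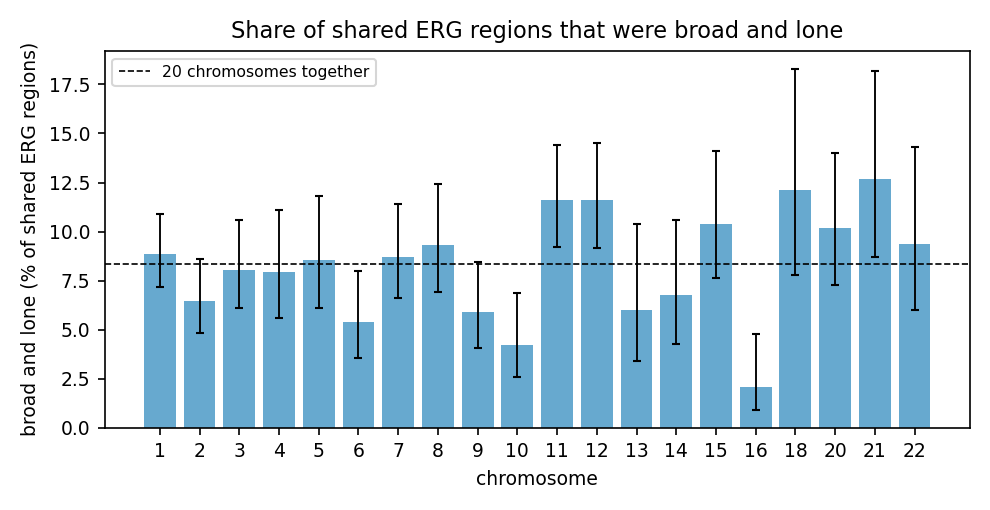
Broad lone regions as a percentage of the shared ERG regions (y axis) of each kept autosome (x axis), as bars with 95% Wilson intervals and the pooled share of 8.35% as a dashed line. Chromosomes 11, 12 and 21 lie above the line with their whole interval, and chromosomes 6, 10 and 16 below it.

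On a finer scale the regions fell into 486 windows of 1 Mb. Of these windows 364 held a single region, 80 held 2 and 42 held 3 or more. No expected spacing was computed, so whether the regions were scattered or grouped was not tested. The next broad lone region lay a median of 543.4 kb away, within 100 kb for 110 regions and over 1 Mb away for 269. The fullest window, on chromosome 1 from base 1000001, held 8 among 22 shared regions. On chromosome 11 the window from base 67000001 held 6 among 25, and those from 64000001, 66000001 and 118000001 held 5 each, among 29, 16 and 11. The windows on chromosome 20 from 60000001 and on chromosome 21 from 38000001 also held 5 each, among 9 and 10 shared regions. Across these windows the broad lone regions were between 5 of 29 and 5 of 9 of the shared ERG sites.

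A p53 peak overlapped 26 of the 676 broad lone regions (3.85%, 95% Wilson interval 2.64% to 5.58%). Over all 8094 shared ERG regions the share was 1.36% (110 regions), below that interval. For p53 replicate 1 the shares were 2.81% (19 regions, 1.81% to 4.35%) against 0.988%. For p53 replicate 2 they were 1.63% (11 regions, 0.911% to 2.89%) against 0.655%. Both p53 replicates had a peak in 4 regions (0.592%, 0.23% to 1.51%) against 0.284% of all shared regions, a share within that interval, so for p53 found in both samples no difference from all shared regions is shown. Of the others, 15 regions had a peak of replicate 1 alone and 7 of replicate 2 alone. Each p53 sample taken separately thus gave a higher share at the broad lone regions, but few of these regions were seen in both. Of the 281 merged p53 regions on the kept autosomes, 111 lay at shared ERG regions, and 27 of these (24.3%) lay at broad lone ones, which are 8.35% of the shared ERG regions and 14.5% of their bases.

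A wider region offers more bases to be met, so the p53 peaks were also counted per length. The broad lone regions met 32 p53 peaks in 568.6 kb, or 56.3 per Mb, against 34.4 per Mb over all shared regions and 22.3 per Mb in the 6171 narrower lone regions. The broad regions with a shared neighbour met 10 in 124.8 kb, or 80.1 per Mb, and 9 of those 142 regions (6.34%, 95% Wilson interval 3.37% to 11.6%) overlapped a p53 peak. That interval overlaps the one of the lone regions, so the lone regions are not shown to differ from the other broad ones. In the narrower lone regions the share was 0.859% (53 of 6171, 0.657% to 1.12%). Some of the p53 peaks shared a region. When regions that met more than 1 p53 peak were left out of every set, 22 of 672 broad lone regions (3.27%, 2.17% to 4.91%) met one. This compared with 1.08% of all shared regions and 0.73% of narrower lone ones, and the peaks per Mb were 39 against 22.2 and 16.5. The 4 broad lone regions left out were the same 4 that had peaks of both p53 samples. The 22 kept were thus each met by 1 p53 sample alone, and these values say nothing of p53 found in both.

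Within the lone regions the share that met a p53 peak rose with width over the coarser classes below. The intervals of neighbouring classes under 700 bp overlapped, and finer classes showed no steady rise. With lone regions grouped by the narrower ERG peak, a p53 peak was met by 0.617% of those under 300 bp (20 of 3241), 0.797% from 300 to 399 bp (14 of 1756) and 1.62% from 400 to 549 bp (19 of 1174). Among the broad lone regions it was met by 1.99% from 550 to 699 bp (9 of 453, 95% Wilson interval 1.05% to 3.73%) and by 7.62% at 700 bp or more (17 of 223, 4.81% to 11.9%). These intervals do not overlap. The counts per Mb in the same order were 18.4, 20.4, 31.3, 32.3 and 92.0, so the widest of these lone classes also stood highest per length. The share depends on where the classes are cut. In finer classes set after the data were seen, a p53 peak was met by 2.2% of lone regions from 500 to 549 bp (6 of 273), by 0 of 190 from 550 to 599 bp (upper Wilson limit 1.98%), by 3.23% from 600 to 649 bp (5 of 155) and by 3.7% from 650 to 699 bp (4 of 108). It was met by 8.93% from 700 to 799 bp (10 of 112, 4.92% to 15.7%) and by 6.31% at 800 bp or more (7 of 111, 3.09% to 12.4%). Per length the classes from 700 to 799 bp and from 800 bp had 100 and 85.6 p53 peaks per Mb. All 26 broad lone regions with a p53 peak thus had a narrower peak of 600 bp or more, 5.35% of the 486 regions of that width, and the intervals of neighbouring classes from 600 bp on overlap, so no sharp change at 700 bp is shown. Without the regions that met more than 1 p53 peak, the counts for 550 to 699 bp and for 700 bp or more were 20.7 and 66.7 per Mb, and 6.79% of the regions of 700 bp or more (15 of 221) met one. Where a shared neighbour lay within 10 kb, the corresponding broad classes had 6.02% (5 of 83, 2.6% to 13.3%) and 6.78% (4 of 59, 2.67% to 16.2%), shares whose intervals overlap. Per length these classes had 96 and 64.2 p53 peaks per Mb, or 64.8 and 64.2 without regions that met more than 1. No rise per length between them was seen there. Of the 169 broadest lone regions 13 met a p53 peak, and of the 169 narrowest none did. The median narrower peak was 735.5 bp in broad lone regions with a p53 peak and 643.5 bp in those without.

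**Figure D4:**
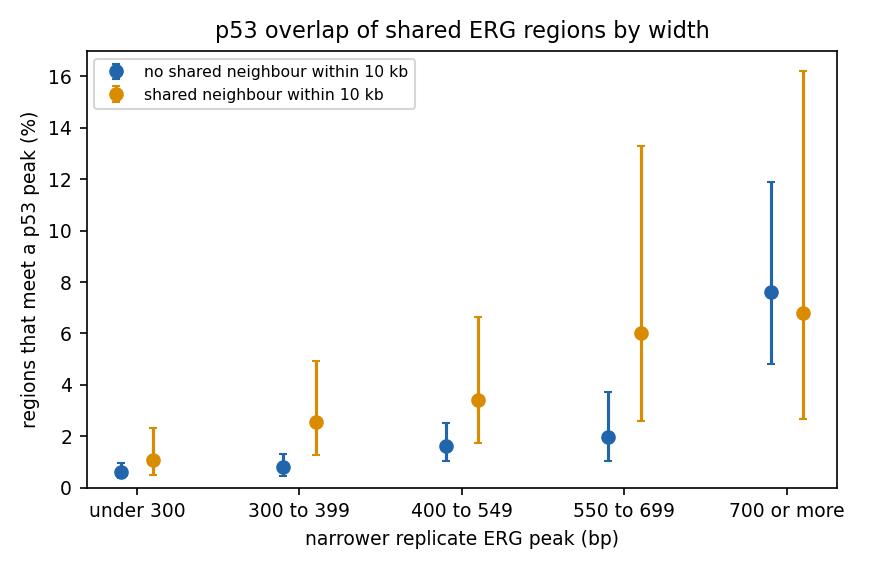
Percentage of shared ERG regions that met a p53 peak (y axis, with 95% Wilson intervals) by the width of the narrower ERG peak (x axis, bp), for lone regions and for those with a shared neighbour within 10 kb. Among lone regions the share goes from 0.617% under 300 bp to 7.62% at 700 bp or more.

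Within the regions the p53 peaks were mostly narrower than the ERG peaks. The 32 peaks (20 of replicate 1, 12 of replicate 2) were 191 to 1656 bp wide. Their medians of 300 bp and 353.5 bp compared with 230 bp (168 peaks) and 286 bp (109 peaks) away from these regions on the same chromosomes. The midpoint of the p53 peak lay a median of 135 bp from the centre of the region (2 to 612.5 bp), and 24 of the 32 midpoints were closer to the centre than to the nearer end. A peak that lies inside a region or spans it has its midpoint held toward the centre. No expected placement was computed, so these positions are a description only. The p53 peak was wholly inside the ERG region in 26 cases, and 31 of the 32 overlapped ERG peaks of both replicates. The p53 peaks of a replicate covered from 17.2% to 100% of the region they met, with a median of 31.4%. They covered more than 50% of it in 5 regions. Only 1 further broad lone region had a p53 peak within 1 kb, and none was added within 10 kb, so p53 peaks near these regions were almost all inside them.

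**Figure D5:**
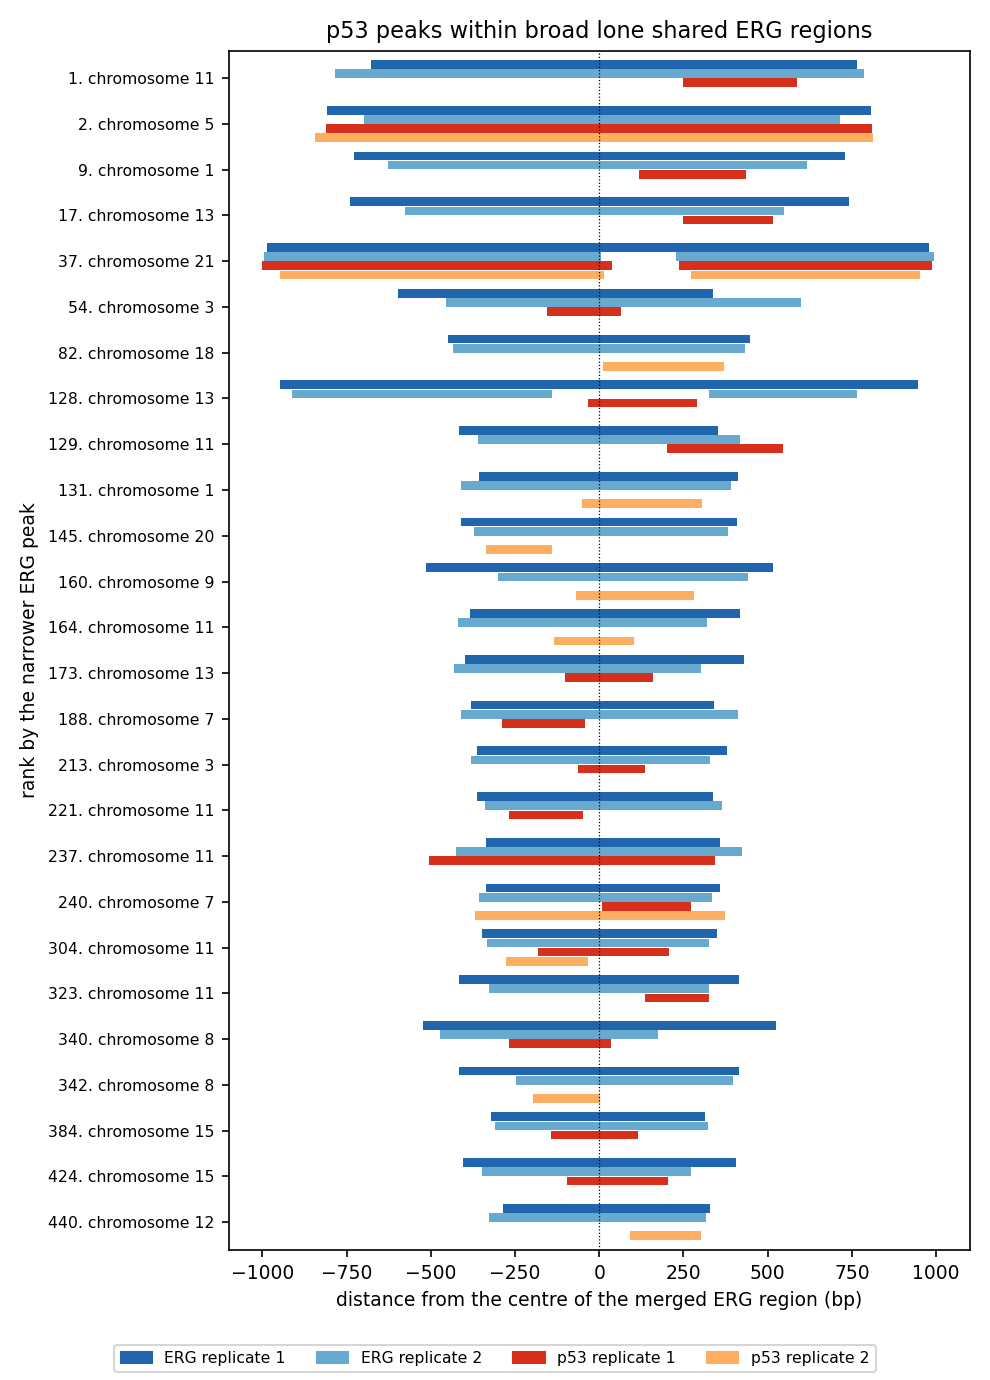
ERG and p53 peaks of the 26 broad lone regions that met a p53 peak, drawn by distance from the centre of the merged region (x axis, bp) and ordered by rank of the narrower ERG peak (y axis), with a bar for each peak of each replicate. Most p53 bars are shorter than the ERG bars, while those of chr5:10161-11775, at rank 2, span the region whole.

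In each of the 4 regions with peaks of both p53 samples, a p53 sample covered more than 50% of the ERG region, which replicate 1 alone did at 1 further region. At chr5:10161-11775, the second broadest region, p53 peaks of 1621 and 1656 bp (replicates 1 and 2) covered the whole ERG region, with midpoints 2 and 15.5 bp from its centre. At chr21:9825501-9827490, replicate 1 of ERG had a peak of 1966 bp and replicate 2 had peaks of 999 and 767 bp. There p53 replicate 1 also had a pair of peaks, of 1038 and 753 bp, and p53 replicate 2 of 960 and 681 bp, which covered 89.7% and 82.5% of the region. At both regions the p53 peaks thus spanned far more of the ERG region than the median of 31.4%. At chr7:61968934-61969650, the second most isolated region, ERG peaks of 694 and 692 bp were met by p53 peaks of 263 and 742 bp, the latter covering 100% of it. At chr11:120206697-120207394 (ERG 698 and 660 bp) the p53 peaks were 389 and 244 bp wide and lay 13.5 and 156 bp from the centre, and replicate 1 covered 55.7% of the region. Input chromatin was not used here, and whether its signal was also raised at these 4 regions was not tested. The part of mappability in the peaks of these 4 regions was not tested either.

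Of the 15 regions met by p53 replicate 1 alone, 3 were among the 20 broadest. The p53 peak at chr11:64084444-64086013 was 337 bp wide and lay 417.5 bp from the centre. At chr1:16839725-16841181 it was 318 bp wide and lay 277.5 bp from the centre, and at chr13:99228379-99229861 it was 267 bp wide and lay 381 bp from the centre. In these very broad regions the p53 peak took up a small stretch to 1 side. At chr13:111566468-111568360 (ERG 1893 and 771 bp) the p53 peak of 325 bp overlapped the replicate 1 ERG peak but fell between the ERG peaks of replicate 2, which measured 771 and 439 bp, the single case of a p53 peak that missed an ERG replicate. The remaining p53 site on this chromosome was chr13:111805591-111806452 (ERG 831 and 732 bp, p53 262 bp, 28 bp from the centre).

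Chromosome 11 held 7 of the 26 regions, and 69 of all 676 broad lone regions (10.2%). The share of its other shared ERG regions that met a p53 peak is not given here. Between bases 63753301 and 64864137, bounds set by these regions themselves after the p53 peaks were seen, lay 4 of the 7 with a p53 peak. These 4, among them the broadest region, were all met by p53 replicate 1 alone. The other 3 were chr11:63753301-63754132 (ERG 832 and 653 bp, p53 191 bp), chr11:63933364-63934211 (ERG 692 and 848 bp, p53 849 bp) and chr11:64863410-64864137 (ERG 703 and 703 bp, p53 222 bp). At the middle one the p53 peak was about as wide as the ERG region and covered 90.6% of it. Also on this chromosome, chr11:9482069-9482902 (ERG 771 and 778 bp) was met by a p53 peak of 344 bp at its edge, with 62.8% of the peak inside.

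The p53 replicate 1 peak lay close to the centre at chr15:93352271-93352913 (ERG 635 and 630 bp, p53 258 bp, 14.5 bp away), at chr3:186500686-186501444 (744 and 707 bp, p53 199 bp, 35 bp away) and at chr3:41240426-41241622 (937 and 1053 bp, p53 221 bp, 45 bp away). It lay somewhat farther at chr15:64454962-64455773 (812 and 619 bp, p53 299 bp, 53.5 bp away), at chr8:101224951-101225997 (1047 and 645 bp, p53 301 bp, 117 bp away) and at chr7:6413841-6414663 (722 and 823 bp, p53 246 bp, 166.5 bp away). In all 6 the peak spanned less of the region than the ERG peaks did.

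The 7 regions met by p53 replicate 2 alone lay on 7 chromosomes and none was among the 20 broadest. They were chr18:12947673-12948568 (ERG 896 and 867 bp, p53 357 bp, 190.5 bp from the centre), chr1:150551645-150552468 (770 and 803 bp, p53 355 bp, 127.5 bp) and chr9:26892086-26893114 (1029 and 742 bp, p53 352 bp, 105.5 bp). These 3 p53 peaks were of nearly the same width. Narrower ones were found at chr20:56284963-56285781 (819 and 752 bp, p53 195 bp, 238 bp from the centre), chr11:116643251-116644087 (803 and 739 bp, p53 239 bp, 15 bp) and chr8:41909302-41910133 (832 and 645 bp, p53 197 bp, 97.5 bp). The last, chr12:49454151-49454806 (615 and 644 bp), was met by a p53 peak of 212 bp that lay 197 bp from the centre. Whether a region met by a single p53 replicate lies just under the limit of the other list cannot be read from lists without scores.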

How the data were processed

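Peak lists of 2 ERG and 2 p53 ChIP-seq samples of VCaP cells were used, grouped and numbered per the labels, which do not say whether replicates came from separate cultures. Per the submitters' processing notes the authors used CASAVA 1.4 and Bowtie2 2.3.3.1, called peaks with MACS2 on each sample without pooling, and mapped to hg19. In the study's methods the Bowtie2 version differs and both builds are named. The deposited values are positions (4 columns per line, no score). The build was checked against hg38, where 304 peaks lie beyond the chromosome ends of 15 chromosomes, and only that genome was at hand. Start sites, motifs and gene lists were therefore not analysed here.

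Peaks were merged at 1 bp of overlap as described above, and intervals are 95% Wilson intervals for counting error. Regions are not replicates of a condition, and no test was run. The text names the 20 broadest regions, every region with a p53 peak, 3 regions on each side of both limits and the 3 most isolated. Regions that differ most between replicates and the fullest windows were chosen after their values were seen. The members and lists were chosen with earlier results of these data known. The merging and selection were tested on simulated data. Alternatives varied the width, distance and overlap limits, the chromosomes and the replicates used. Values were computed in Python 3.11.15 with scipy 1.17.1 and numpy 2.4.6, and plotted with matplotlib 3.10.9.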

Additional observations from a re-analysis of the deposited data

How the results depend on the processing

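Of 34 alternatives, 3 of them chosen after seeing the data, 24 left the count within 1.5 times of the reported one or the median within 47 bp, the SD between the replicate medians. The 47-bp limit exceeds the median midpoint distance of 39.75 bp, so it could hardly flag a change in that value. With midpoints of all peaks of a replicate the distance was 38.25 bp. The number of broad lone regions, 676, became 223 with a minimum width of 700 bp and 389 with the next shared region over 50 kb away. With a single ERG list in place of both it was 817 (without replicate 1) to 1583 (without replicate 2). The number that met a p53 peak, 26, became 17 (7.62%) at 700 bp and 13 (3.34%) at 50 kb. It was 11 (1.63%) without p53 replicate 1 and 43 (2.72%) without ERG replicate 2, the ends of the range when a sample was left out. It was 4 (0.592%) when both p53 samples had to have a peak. Over all shared regions the share was 1.36%, with 0.655% without p53 replicate 1 and 0.284% for peaks of both p53 samples. No matching share is given for a single ERG list, so the 2.72% has no background here. The number with a single-replicate region nearby, 64, became 37 within 5 kb and 107 within 20 kb, by construction. Without scores, stricter peak thresholds could not be tried. The planned results on start sites, motifs and gene lists were not run, since no hg19 reference was used. No paired analysis was possible because the values come from no fitted model and the replicate numbers only name the lists.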
